A study of Mus musculus with 8 samples.

Results

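MHC class I antigen presentation was followed through 10 genes in RNA of cultured mouse microglia: the classical heavy chains H2-K1 and H2-D1, the light chain B2m, the peptide transporter subunits Tap1 and Tap2, the loading chaperone Tapbp, the immunoproteasome subunits Psmb8, Psmb9 and Psmb10, and the class I transactivator Nlrc5. They were chosen by name for their place in the pathway, not by their values, although earlier results of these data were known. They were found among the 52636 genes of the count table by Ensembl identifier. All 10 passed the filter on low counts, which left 13847 genes for testing.

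The libraries came from primary microglia of wild-type (WT) C57BL/6 mice (C57BL/6N pups in the study's methods), the resident macrophages of the brain, shaken off mixed glial cultures of neonatal brains and kept in DMEM with 10% fetal bovine serum and 10 ng/ml CSF-1. One group received 5 µg/ml LPS, a bacterial endotoxin that activates Toll-like receptor 4, and the other received vehicle, both for 24 h, with 4 libraries per group labeled as biological replicates. The sources used here do not say which animals or culture preparations the replicates came from, so p-values measure the spread between these libraries.

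Class I molecules display short peptides of cytosolic proteins to CD8 T cells. The proteasome cuts the proteins, the TAP transporter moves the peptides into the endoplasmic reticulum, and a loading complex fits them onto a heavy chain paired with beta-2-microglobulin. Interferons and NF-kappa B signaling are known to raise many genes of this pathway, and Nlrc5 is a coactivator that acts at class I promoters. Microglia in healthy brain are known for low class I levels.

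Library totals lay between 20071921 and 30604447 counts. Levels are given as CPM, counts scaled to a common library size after TMM, which corrects that size for differences in composition, and differences as log2 fold changes of LPS against vehicle with their standard error (SE). The TMM factors did not overlap between the groups, at 1.21 to 1.32 in vehicle and 0.701 to 0.833 after LPS. Microglial markers were abundant in every library but lower after LPS, with 8 of 10 called lower, none called higher, and a summed level of 8684 to 11725 CPM in vehicle against 2098 to 2828 CPM after LPS. Of 10 T and NK cell markers, 9 had at most 3 counts in every library, with Cd4 the exception. Of 10 dendritic cell markers, 1 was called higher (Xcr1, 0.315 to 0.692 CPM in vehicle and 4.98 to 17.7 CPM after LPS) and 2 lower of 4 tested, with a summed level of 7.18 to 17.03 CPM in vehicle and 8.22 to 20.01 CPM after LPS, and Flt3, Siglech and Cd209a had at most 3 counts in every library. The summed astrocyte markers reached 20.1 to 47.7 CPM in vehicle and 41.2 to 124 CPM after LPS, with 1 of 8 tested called higher (Gja1) and 3 lower. Gja1, at 0.639 to 1.07 CPM in vehicle and 28.9 to 98.15 CPM after LPS, made up most of the sum in each LPS library. The summed endothelial markers did not overlap between the groups, at 46.1 to 87.6 CPM in vehicle and 203 to 276 CPM after LPS, with 3 of 5 tested called higher (Pecam1, Cdh5 and Flt1) and none lower, while Cldn5, Tek, Ly6c1, Esam and Tie1 had at most 3 counts in every library. Neuron markers (14.8 to 50.6 against 5.27 to 22.9 CPM) were called lower in 5 of 7 tested and higher in none, oligodendrocyte lineage markers (199 to 225 against 189 to 243 CPM) lower in 4 and higher in 1 of 8, and fibroblast markers (9.04 to 13.6 against 6.65 to 21.7 CPM) lower in 1 and higher in 1 of 4. All these marker counts stand beside 30.3% of all tested genes called higher and 33.8% called lower (edgeR adjusted p under 0.05). The mitochondrial share of counts was 0.400 to 0.518% in vehicle and 0.114 to 0.237% after LPS. The part of these shifts in the results was not tested, and in such bulk samples fewer cells of a type and less RNA per cell cannot be told apart.

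Of the 10 genes, 7 lie in the MHC region of chromosome 17 (GRCm38, GENCODE vM21). H2-K1 occupies 33996017 to 34000347 on the minus strand and H2-D1 35262730 to 35267499 on the plus strand. Psmb9 (34181987 to 34187764, minus), Tap1 (34187553 to 34197225, plus), Psmb8 (34197721 to 34201454, plus) and Tap2 (34203527 to 34216321, plus) follow each other without a gap larger than a few kilobases, and Tapbp is at 33915899 to 33929292 on the plus strand. The remaining 3 genes are elsewhere, B2m on chromosome 2 (122147686 to 122153083, plus), Psmb10 on chromosome 8 (105935735 to 105938444, minus) and Nlrc5 on chromosome 8 (94434356 to 94527272, plus).

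RefSeq promoter windows (GRCm38.p6, 250 bases before to 50 bases after a start site) were given for 8 of the 10 genes, all but Tap2 and Nlrc5. The upstream stretches of H2-K1 (chr17:34000348-34000597, minus strand) and B2m (chr2:122147437-122147686, plus strand) are printed 5′ to 3′ because a heavy chain and the light chain it pairs with carried the same 4 kinds of element. Capitals mark, in this order from the 5′ end in H2-K1, a kappa B consensus, an IRF element (AANNGAAA on either strand), the X2 core (TGACG) and the Y box (CCAAT, here read as ATTGG), and in B2m the IRF element precedes the kappa B consensus.

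H2-K1: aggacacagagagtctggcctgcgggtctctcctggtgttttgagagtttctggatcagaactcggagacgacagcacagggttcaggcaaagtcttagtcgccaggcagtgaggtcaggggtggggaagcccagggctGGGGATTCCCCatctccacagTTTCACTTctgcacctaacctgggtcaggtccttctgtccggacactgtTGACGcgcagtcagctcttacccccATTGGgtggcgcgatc
B2m: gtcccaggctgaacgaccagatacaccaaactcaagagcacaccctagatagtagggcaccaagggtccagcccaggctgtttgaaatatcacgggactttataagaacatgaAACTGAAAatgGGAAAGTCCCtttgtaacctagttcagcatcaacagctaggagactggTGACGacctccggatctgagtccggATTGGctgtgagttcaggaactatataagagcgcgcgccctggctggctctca

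In both genes, and in H2-D1, the X2 core and the Y box were 20 bases apart. The 30 bases from the first to the last of these letters are shown for the 3 genes, with the 2 elements in capitals. They lie at chr17:34000359-34000388 (minus strand, 41 to 12 bases upstream of the start site) for H2-K1, at chr17:35262993-35263022 (plus strand, 101 to 72 bases upstream of the RefSeq start) for H2-D1 and at chr2:122147609-122147638 (plus strand, 78 to 49 bases upstream) for B2m. The H2-D1 stretch falls inside the first exon, in the 5′ UTR, of a GENCODE transcript that starts further upstream. The upstream windows of Tapbp, Psmb8 and Psmb9 also lie inside the bounds of their GENCODE genes. GENCODE start sites further upstream were not searched.

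H2-K1: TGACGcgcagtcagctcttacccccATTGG
H2-D1: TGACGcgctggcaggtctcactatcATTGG
B2m: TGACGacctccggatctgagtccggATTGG

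Between the capitals, H2-K1 and H2-D1 had 13 of 20 bases in common, while B2m matched H2-K1 at 3 and H2-D1 at 2. This spacing was found in 31 of 32851 promoter windows of all genes (0.0944%, either strand), and was noticed in the printed sequences before it was counted. The windows include those of the 3 genes shown, with H2-K1 counted at 2 start sites. The single elements were common. The Y box was present in 37.4% of all windows and in 6 of the 8 genes (H2-K1, H2-D1, B2m, Tap1, Tapbp and Psmb9). The X2 core was present in 20.8% of windows and in 5 genes (H2-K1, H2-D1, B2m, Tap1 and Psmb9). Tap1 and Psmb9 lie on opposite strands with overlapping windows, and their X2 core and Y box are the same bases, counted for both genes. The IRF element (23.9% of windows) and the kappa B consensus (8.46%) were found in H2-K1, H2-D1 and B2m. The longer interferon-stimulated response element (3.44% of windows) overlapped the IRF element of B2m, and the gamma-activated site (TTCNNNGAA, 8.30%) was found in Psmb8. Counted over genes with any matching window, as was done for the 8 genes, the shares were 41.1% for the Y box and 23% for the X2 core. They were 26.7% for the IRF element, 9.55% for the kappa B consensus and 3.99% for the interferon-stimulated response element. The gamma-activated site was at 9.55% and the 20-base spacing at 0.0999%. Both strands were searched, and a match in letters is a description, not a bound site.

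All 10 class I genes were higher after LPS, where 64.1% of all tested genes were called, 30.3% higher and 33.8% lower (edgeR quasi-likelihood test, Benjamini-Hochberg adjusted p under 0.05). The groups overlapped in none of the 10, and 28.7% of all tested genes had every LPS library above every vehicle library (31.5% below). The median log2 fold change of the 10 genes was 1.87, against −0.11 over all tested genes. Scaled by library totals alone in place of TMM, an alternative added after the data were seen, the median of all genes moved by −0.68 and 1988 genes were called higher against 8457 lower, in place of 4191 and 4686. With that scaling 9 of the 10 genes were called higher, against 14.4% of all tested genes called higher and 61.1% lower, and Psmb10 was the exception.

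The heavy chains form the peptide groove of the class I molecule, and C57BL/6 mice have the classical genes H2-K1 and H2-D1. H2-K1 was at 705, 695, 941 and 617 CPM in vehicle libraries 1 to 4 and at 2858, 3394, 2768 and 3331 CPM in LPS libraries 1 to 4. The highest vehicle library, number 3, was far below the lowest LPS library, also number 3. The means were 740 ± 140 and 3088 ± 320 CPM (SD, n = 4), a log2 fold change of 2.06 (SE 0.17, 4.18-fold, edgeR adjusted p = 6.79e-06).

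H2-D1 was at 1018, 1064, 1425 and 949 CPM in vehicle and at 3491, 4220, 3146 and 4271 CPM after LPS. Vehicle 3 was again the highest of its group and LPS 3 the lowest. H2-D1 rose from 1114 ± 213 to 3782 ± 554 CPM (SD, n = 4), with a log2 fold change of 1.76 (SE 0.18, edgeR adjusted p = 2.76e-05). Of the 50-base stretches of its transcripts, 12.8% also occur in other genes, and 9.63% of those of H2-K1, mostly in other class I genes, and a read from such a stretch has no unique place.

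B2m encodes the invariant light chain, without which heavy chains do not reach the cell surface. It was the most abundant of the 10, at 2395, 2669, 3401 and 2460 CPM in vehicle and 6358, 7846, 10043 and 7287 CPM after LPS. Number 3 was the highest library in both groups. The rise from 2731 ± 461 to 7884 ± 1565 CPM (SD, n = 4) gave a log2 fold change of 1.53 (SE 0.20, edgeR adjusted p = 0.000111).

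**Figure D1:**
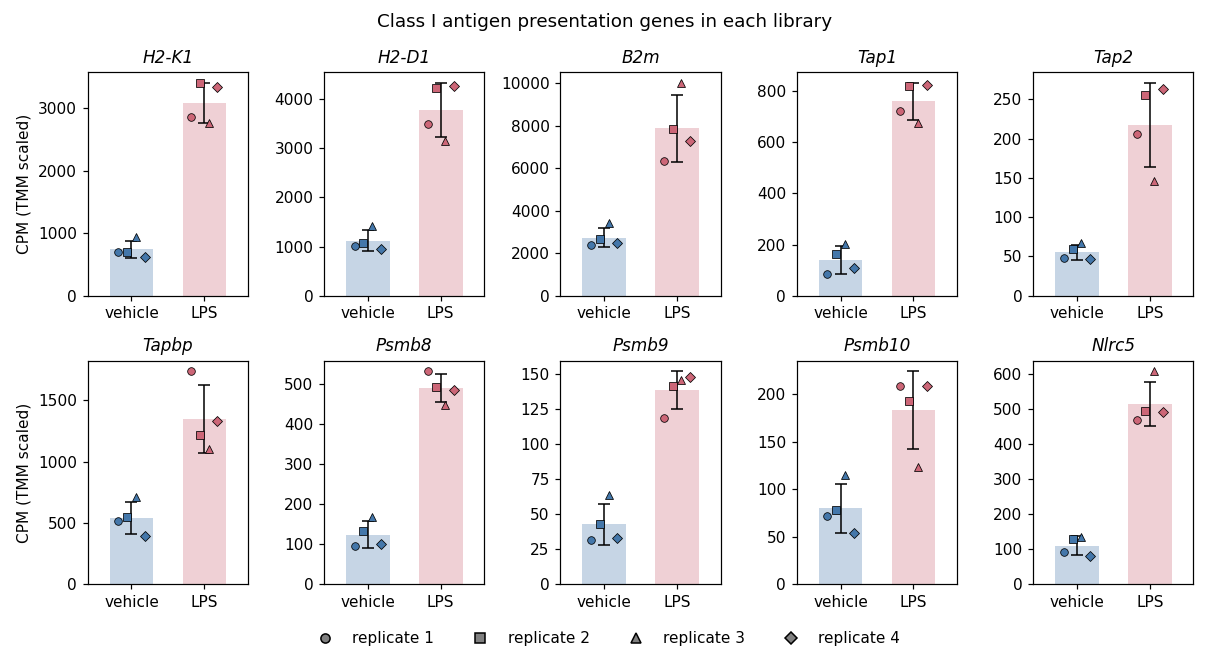
CPM after TMM scaling (y axis, linear, from 0, a scale of its own in each panel) of each of the 10 class I genes in the 4 vehicle and 4 LPS libraries, one point per library. The mean of each group is a bar and its SD an error line. In every panel all LPS libraries lie above all vehicle libraries, and vehicle 3 is the highest vehicle library.

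Tap1 and Tap2 form the ATP-driven peptide transporter. Tap1 was at 84.5, 165, 204 and 107 CPM in vehicle and at 722, 820, 674 and 822 CPM after LPS. The vehicle libraries spread more than the LPS libraries, with coefficients of variation of 38.9% and 9.73%. Tap1 had the largest change of the 10 genes, from 140 ± 54.4 to 759 ± 73.9 CPM (SD, n = 4), a log2 fold change of 2.44 (SE 0.27, 5.43-fold, edgeR adjusted p = 3.55e-05).

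Tap2 was at 47.4, 59.1, 67.0 and 46.4 CPM in vehicle and at 207, 255, 146 and 263 CPM after LPS. Here LPS 3 stood below the other LPS libraries while still above all vehicle libraries. The log2 fold change was 1.99 (SE 0.21, edgeR adjusted p = 2.64e-05), from 55.0 ± 9.88 to 218 ± 53.8 CPM (SD, n = 4).

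Tapbp encodes tapasin, which bridges TAP and the empty heavy chain. It was at 514, 546, 710 and 396 CPM in vehicle and at 1735, 1215, 1104 and 1329 CPM after LPS. Its groups were closer than those of the transporter, with LPS 3 at 1104 CPM and vehicle 3 at 710 CPM. Tapbp rose from 542 ± 130 to 1346 ± 275 CPM (SD, n = 4), with a log2 fold change of 1.31 (SE 0.21, edgeR adjusted p = 0.000400).

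Psmb8, Psmb9 and Psmb10 encode the catalytic subunits that replace Psmb5, Psmb6 and Psmb7 in the immunoproteasome. Psmb8 was at 95.9, 133, 169 and 99.9 CPM in vehicle and at 532, 493, 448 and 485 CPM after LPS. The LPS libraries were the tightest of any of the 10 genes, with a coefficient of variation of 7.04%. Its mean went from 125 ± 34.0 to 489 ± 34.4 CPM (SD, n = 4), a log2 fold change of 1.98 (SE 0.19, edgeR adjusted p = 1.56e-05).

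Psmb9 was at 31.9, 42.8, 63.3 and 33.2 CPM in vehicle and at 118, 141, 145 and 148 CPM after LPS. LPS 1 was the lowest treated library, at 118 CPM, and vehicle 3 the highest control, at 63.3 CPM. The change was from 42.8 ± 14.5 to 138 ± 13.5 CPM (SD, n = 4), with a log2 fold change of 1.69 (SE 0.21, edgeR adjusted p = 9.02e-05).

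Psmb10 was at 72.2, 77.9, 115 and 54.3 CPM in vehicle and at 208, 192, 123 and 209 CPM after LPS. Vehicle 3 and LPS 3 nearly met, with a log2 difference of 0.10 between the libraries numbered 3 against 1.30 to 1.94 for the other numbers. Psmb10 had the smallest change of the 10 genes, from 79.8 ± 25.3 to 183 ± 40.7 CPM (SD, n = 4), a log2 fold change of 1.20 (SE 0.24, edgeR adjusted p = 0.00174). Scaled by library totals, its log2 fold change was 0.55 and the call was lost (edgeR adjusted p = 0.0714).

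Nlrc5 encodes the coactivator that docks on the X and Y boxes of class I promoters. It was at 93.3, 129, 136 and 80.9 CPM in vehicle and at 469, 495, 609 and 492 CPM after LPS. LPS 3 was the highest LPS library for Nlrc5 and for B2m and the lowest for 7 of the other genes. Nlrc5 rose from 110 ± 27.0 to 516 ± 62.7 CPM (SD, n = 4), with a log2 fold change of 2.23 (SE 0.19, 4.69-fold, edgeR adjusted p = 7.74e-06), the second largest of the 10.

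Several of these genes overlap a gene on the other strand, and whether the counting used strand is not given in the sources used here. Exonic overlap with an opposite-strand gene covered 24.9% of Tapbp (Gm19412), 18.5% of Tap2 (Gm15821 and Gm20496), 14.7% of Psmb8 (Gm20496), 5.79% of Psmb9 (Tap1) and 3.87% of Tap1 (Psmb9). Gm19412, Gm15821 and Gm20496 had at most 106 counts in any library.

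Set against transcript length, as CPM per kilobase of exonic sequence, B2m led in both groups, at 3176 ± 536 in vehicle and 9167 ± 1820 after LPS (SD, n = 4). In vehicle H2-D1 (432 ± 82.5), H2-K1 (252 ± 47.6) and Tapbp (149 ± 35.8) followed. Psmb10 (46.8 ± 14.8), Psmb8 (36.8 ± 10.05) and Tap1 (25.5 ± 9.93) came next, each overlapping its neighbor within the SD, and Tap2 (14.6 ± 2.61), Nlrc5 (13.0 ± 3.18) and Psmb9 (11.7 ± 3.96) lay within each other's spread. After LPS Psmb8 (145 ± 10.2) and Tap1 (139 ± 13.5) had higher means than Psmb10 (107 ± 23.9), though Tap1 and Psmb10 overlapped within the SD, as did Nlrc5 (60.8 ± 7.39) and Tap2 (57.6 ± 14.2), and Psmb9 remained the lowest at 37.7 ± 3.70. Divided by the longest transcript in place of all exonic bases, the vehicle levels of H2-K1, H2-D1, Tap1, Tapbp and Psmb8 became 395, 530, 35.8, 187 and 65.3 CPM per kilobase, and Psmb8 then stood above Psmb10 at 60.8.

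The order of the vehicle libraries was similar across the set. Vehicle 3 was the highest vehicle library for all 10 genes (9 with library totals), vehicle 4 the lowest for 6 and vehicle 1 for 4. After LPS no library led throughout, with LPS 4 highest for 5 genes, and LPS 3 lowest for 7 and highest for 2. Vehicle 3 also had the highest summed microglial markers of its group (11725 CPM, others 8684 to 9763) and the lowest summed astrocyte markers (20.1 CPM, others 38.7 to 47.7), and LPS 3 had the highest mitochondrial share of the LPS libraries (0.237%, others 0.114 to 0.151%). The part of these in the class I levels was not tested. Without number 3 of both groups, an alternative added after the data were seen, all 10 genes were called higher, with log2 fold changes of 2.81 for Tap1, 2.33 for H2-K1 and 1.66 for Psmb10.

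**Figure D2:**
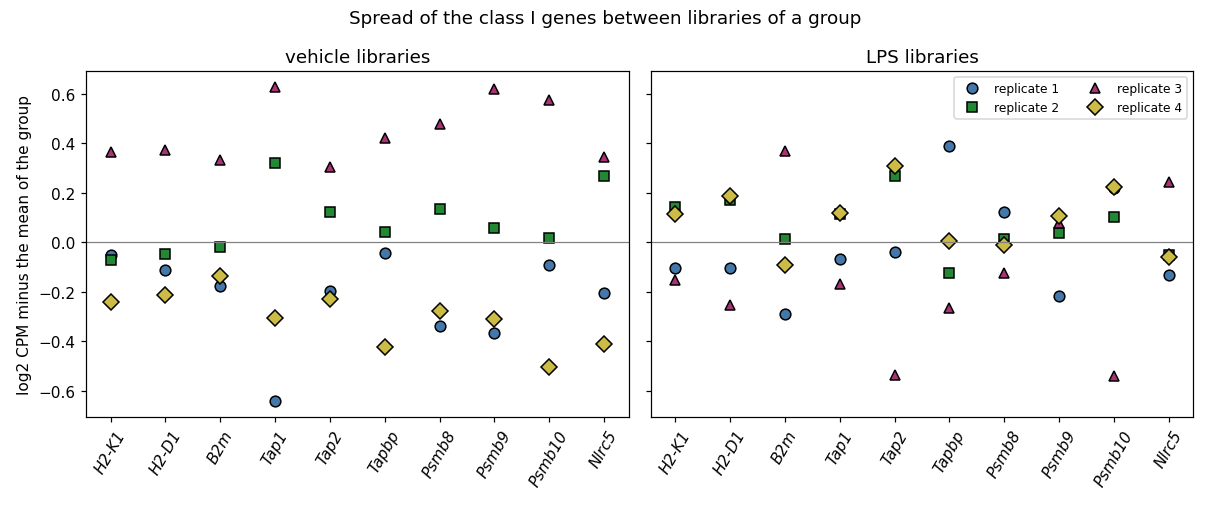
log2 CPM of each of the 10 class I genes minus the mean of its group (y axis) in the 4 vehicle libraries and the 4 LPS libraries, one colored point per library. Vehicle 3 is the top point for all 10 genes, whereas LPS 3 is the bottom point for 7 and the top point for B2m and Nlrc5.

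Ratios between 2 genes of the same library do not depend on the library scaling. Of 8 such ratios, compared between groups by a two-sided exact permutation test over the 70 divisions of the libraries, 6 were higher after LPS in every library, each with p = 0.0286, the smallest value the design allows, and p = 0.0381 after Benjamini-Hochberg adjustment over the 8. With the libraries taken as pairs by number, an exact sign-flip test gave p = 0.125 for each of the 6, the smallest 4 pairs allow, and 0.167 after adjustment, so none passed. The adjusted exact permutation p was also above the threshold for all 6 ratios without vehicle 1 or without any 1 of the LPS libraries, at 0.0571 to 0.0980, while every difference kept its sign. Tap1 rose more than its partner Tap2, from a ratio of 1.71 ± 0.384 to 2.49 ± 0.472 per length (SD, n = 4). Tap1 also rose more than Tapbp, from 0.169 ± 0.0412 to 0.384 ± 0.0748. H2-K1 rose more than H2-D1, from 0.583 ± 0.0172 to 0.721 ± 0.0375, the ratio with the smallest SD in both groups on the log2 scale (0.042 and 0.074).

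In the proteasome, the immune subunit rose against its constitutive counterpart for 2 of the 3 pairs. The ratio of Psmb9 to Psmb6 went from 0.240 ± 0.0694 to 0.451 ± 0.0432 (SD, n = 4), so the immune subunit remained the less abundant of the pair per length. The log2 ratio of Psmb8 to Psmb5 was 3.36, 4.35, 4.54 and 3.99 in vehicle and 4.98, 5.23, 6.56 and 5.13 after LPS. LPS 3 stood apart there, and without it the log2 difference was 1.05 in place of 1.42. Psmb5 was counted at only 1.96 ± 0.372 and 3.23 ± 1.38 CPM (SD, n = 4), and 54.1% of its 50-base stretches also occur in other genes, among them pseudogenes and the microRNA gene Mir686, so its level and this ratio are uncertain. The log2 ratio of Psmb10 to Psmb7 did not differ detectably, at 2.26 ± 0.351 and 2.22 ± 0.515 (exact permutation p = 0.886, adjusted 0.886), with overlapping groups and LPS 3 the lowest at 1.47. Leaving out single libraries put its difference between −0.18 and 0.20, the latter without LPS 3.

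The subunits Psme1 and Psme2 form the proteasome activator PA28, which opens the core particle. The ratio of Psme2 to Psme1 rose from 0.195 ± 0.0178 to 0.333 ± 0.0688 (SD, n = 4), with 28.3% of the 50-base stretches of Psme2 shared, mainly with Psme2b. The log2 ratio of H2-K1 to B2m was −3.66 ± 0.102 in vehicle and −3.11 ± 0.349 after LPS, a difference of 0.55 that did not pass (exact permutation p = 0.0857, adjusted 0.0980). LPS 3, at −3.63, lay among the vehicle libraries there, whereas the other LPS libraries were at −2.98 to −2.90, and the difference without it was 0.72.

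**Figure D3:**
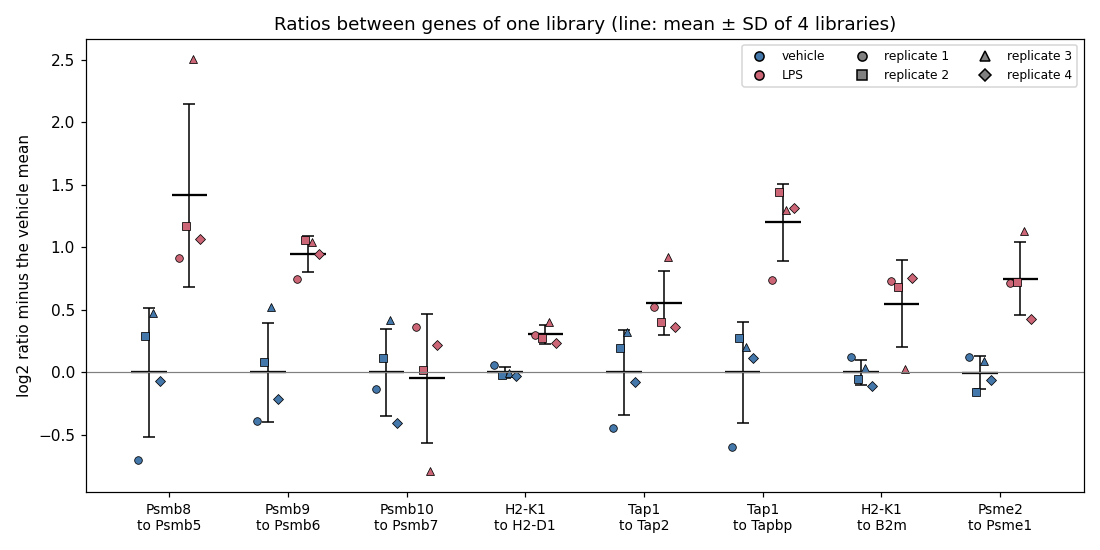
Log2 ratio of 2 genes in each library minus the mean of the vehicle libraries (y axis) for the 8 ratios (x axis), one point per library, with the mean and SD of each group of 4 as a line and bar. The groups separate in 6 ratios and overlap for Psmb10 to Psmb7 and H2-K1 to B2m.

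Other genes of the pathway were read from 5 lists. The largest changes were among the other class I and class I-like heavy chains, of which 23 of 24 listed were in the table (H2-T9 was not matched) and 14 were tested. There were 9 called higher and 3 called lower, and the median change over the 14 was 1.91 on the log2 scale, where 30.3% of all tested genes were called higher, 33.8% lower and the median was −0.11. The 9 include H2-Q10, named after its values were seen, which passed the filter only through the LPS libraries. It had 0, 2, 5 and 0 counts in vehicle and 14, 14, 27 and 12 after LPS. With at least 10 counts required in every library, 8 of 12 were higher and 3 lower, against 3595 higher and 3865 lower of 11203 genes. Without a filter 11 of 20 were higher and 3 lower, against 4222 and 5186 of 25424 genes. H2-Q6, a nonclassical heavy chain of the Qa-2 group, was at 1.16, 4.05, 5.33 and 3.16 CPM in vehicle and at 379, 850, 593 and 765 CPM after LPS. Every LPS library was far above every vehicle library, with a log2 fold change of 7.56 (SE 0.50, edgeR adjusted p = 1.76e-06).

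H2-Q7, also of the Qa-2 group, rose from 1.67 ± 0.594 to 116 ± 61.0 CPM (SD, n = 4, log2 fold change 6.11, SE 0.49, edgeR adjusted p = 5.33e-06). H2-T10, annotated as a polymorphic pseudogene in the reference, rose from 1.87 ± 0.686 to 80.9 ± 2.41 CPM (log2 fold change 5.43, SE 0.24, edgeR adjusted p = 2.14e-07). The counts of these near copies are uncertain, since 35.0% of the 50-base stretches of H2-Q6, 26.5% of H2-Q7 and 50.4% of H2-T10 also occur in other genes. The opposite-strand gene BC023719 covers 27.1% of the exonic bases of H2-T10. It is among the genes counted as sharing stretches with H2-T10, so this overlap lies in part within the 50.4%.

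The 3 genes called lower are class I-like proteins with tasks other than presenting peptides to CD8 T cells. Hfe, a regulator of iron uptake, fell from 89.0 ± 16.6 to 12.5 ± 1.12 CPM (SD, n = 4, log2 fold change −2.83, edgeR adjusted p = 4.47e-07). Fcgrt, the heavy chain of the neonatal Fc receptor, fell from 96.2 ± 32.3 to 23.4 ± 9.15 CPM (log2 fold change −2.04, edgeR adjusted p = 0.000293). Mr1, which presents vitamin B metabolites, fell from 12.9 ± 2.32 to 6.26 ± 2.78 CPM (log2 fold change −1.04, edgeR adjusted p = 0.00824). These proteins also pair with beta-2-microglobulin, whose own gene rose.

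The 2 tested genes without a call, named after their values were seen, were Cd1d1 (log2 fold change −0.43, edgeR adjusted p = 0.588) and H2-M2 (1.54, edgeR adjusted p = 0.0711). H2-M2 was high in the libraries numbered 1 of both groups, at 23.6 and 91.7 CPM, and passed with the replicate number as a block (edgeR adjusted p = 0.00195), without a filter (0.0434) and in 2 of the 8 fits that left out 1 library, without vehicle 1 (log2 fold change 2.14, edgeR adjusted p = 0.0338) and without LPS 2 (1.85, edgeR adjusted p = 0.0371). The change rested largely on LPS 1, without which it was 0.45 (edgeR adjusted p = 0.396).

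Among the counts of 20 class I heavy chain genes of the H2 region, H2-K1 and H2-D1 together took 84.5 ± 1.90% in vehicle and 69.5 ± 0.528% after LPS (SD, n = 4). The share of the H2-Q genes was 1.90 ± 0.317% in vehicle and 11.6 ± 2.23% after LPS, and that of the H2-T genes 11.2 ± 1.87% and 17.4 ± 1.35%. The share of the H2-M genes went the other way, from 2.48 ± 0.338% to 1.54 ± 0.460%, with LPS 1 (2.19%) above vehicle 3 (2.06%). In level, H2-M3 had a log2 fold change of 1.46 and H2-M2 one of 1.54, the latter without a call. The classical pair therefore took 68.9 to 70.2% of the heavy chain counts in the LPS libraries and 82.2 to 86.6% in the vehicle libraries. These shares were computed after the counts were seen, carry no test, are not corrected for length, and rest in part on the near copies named above.

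**Figure D4:**
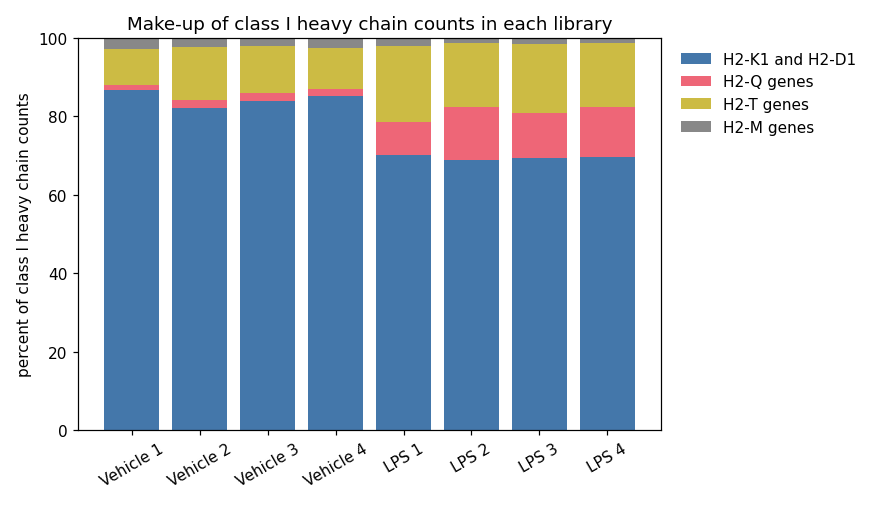
Percent of the summed counts of 20 class I heavy chain genes (y axis, 0 to 100) taken by H2-K1 and H2-D1, the H2-Q genes, the H2-T genes and the H2-M genes in each of the 8 libraries, as stacked bars. The classical pair takes 82.2 to 86.6% in the vehicle libraries and 68.9 to 70.2% in the LPS libraries.

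Of 10 genes for peptide loading and quality control in the endoplasmic reticulum, 5 were called higher and 2 lower, against 30.3% and 33.8% of all tested genes, and the median change was 0.60 on the log2 scale. With library totals the split was 2 higher and 4 lower, against 14.4% and 61.1% of all tested genes. Tapbpl, the tapasin relative TAPBPR that edits bound peptides, rose from 23.6 ± 5.62 to 70.7 ± 20.4 CPM (SD, n = 4, log2 fold change 1.58, edgeR adjusted p = 0.000263). P4hb, a protein disulfide isomerase, rose from 409 ± 40.9 to 1211 ± 257 CPM (log2 fold change 1.57, edgeR adjusted p = 3.90e-05). Uggt1, which returns misfolded glycoproteins to the folding cycle, fell from 165 ± 3.02 to 84.1 ± 14.9 CPM (log2 fold change −0.97, edgeR adjusted p = 0.000111), and Ganab, a glucosidase of that cycle, had a log2 fold change of −0.38 (edgeR adjusted p = 0.00924).

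Of 8 peptidases that trim or destroy peptides in the cytosol or endosomes, 3 were called higher and 3 lower, shares near the 30.3% and 33.8% of all tested genes, with a median of −0.04. With library totals there were 2 and 6, where 14.4% and 61.1% of all tested genes were called. Lnpep, an endosomal aminopeptidase linked to cross-presentation, rose from 179 ± 16.8 to 436 ± 84.2 CPM (SD, n = 4, log2 fold change 1.28, edgeR adjusted p = 5.70e-05). The cytosolic aminopeptidase Npepps rose from 108 ± 7.48 to 247 ± 47.9 CPM (log2 fold change 1.19, edgeR adjusted p = 6.60e-05). Thop1, a cytosolic endopeptidase that destroys class I peptides, fell from 16.7 ± 0.755 to 8.24 ± 3.55 CPM (log2 fold change −1.02, edgeR adjusted p = 0.0138). The aminopeptidase Lap3 fell by 0.66 (edgeR adjusted p = 0.00231) and the endopeptidase Nln by 0.34 on the log2 scale (edgeR adjusted p = 0.0235), and the Nln call was lost in 6 of the 8 fits that left out 1 library, most clearly without vehicle 1 (adjusted p = 0.1396).

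Of 10 constitutive proteasome counterparts, activators and assembly factors, 7 were called higher and 2 lower, against 30.3% and 33.8% of all tested genes, with a median of 0.85. With library totals there were 5 and 3, against 14.4% and 61.1%. Psmb7 rose from 32.2 ± 2.74 to 77.7 ± 8.88 CPM (SD, n = 4, log2 fold change 1.27, edgeR adjusted p = 9.35e-06). Psme2 rose from 14.4 ± 2.99 to 59.7 ± 11.1 CPM (log2 fold change 2.05, edgeR adjusted p = 8.44e-06) and Psme1 from 92.1 ± 16.2 to 226 ± 11.2 CPM (log2 fold change 1.29, edgeR adjusted p = 2.56e-05). Psmb6 rose by a log2 fold change of 0.79 (edgeR adjusted p = 4.82e-05), but by 0.12 without a call when scaled by library totals (edgeR adjusted p = 0.262). Psmb5 had a log2 fold change of 0.72 without a call (edgeR adjusted p = 0.108), and of 0.99 without LPS 3 (edgeR adjusted p = 0.00377). The assembly chaperones Psmg1 and Psmg2 fell, with log2 fold changes of −0.55 (edgeR adjusted p = 0.0156) and −0.84 (edgeR adjusted p = 0.00650), and the Psmg1 call was lost without vehicle 2, 3 or 4 (adjusted p 0.0527 to 0.0658).

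Of 16 transcription factors known to act at class I promoters, 8 were called higher and 1 lower, against 30.3% and 33.8% of all tested genes, with a median of 0.45. With library totals there were 4 and 5, against 14.4% and 61.1%. Stat2, a subunit of the interferon-activated complex ISGF3, rose from 391 ± 126 to 1549 ± 235 CPM (SD, n = 4, log2 fold change 1.99, edgeR adjusted p = 6.71e-05). Irf1, an interferon-induced activator of class I genes, rose from 117 ± 29.8 to 317 ± 122 CPM (log2 fold change 1.44, edgeR adjusted p = 0.00108). The lower gene was Creb1, whose product binds the X2 element, at 98.1 ± 5.58 and 66.5 ± 15.7 CPM (log2 fold change −0.56, edgeR adjusted p = 0.00975). Rfx5, a subunit of the complex that binds the X element, was at 12.1 ± 2.32 and 10.2 ± 0.389 CPM without a call (log2 fold change −0.24, edgeR adjusted p = 0.184). Rfx5 passed as lower with upper quartile scaling (−0.39, edgeR adjusted p = 0.0374) and with library totals (−0.91, edgeR adjusted p = 0.000367).

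**Figure D5:**
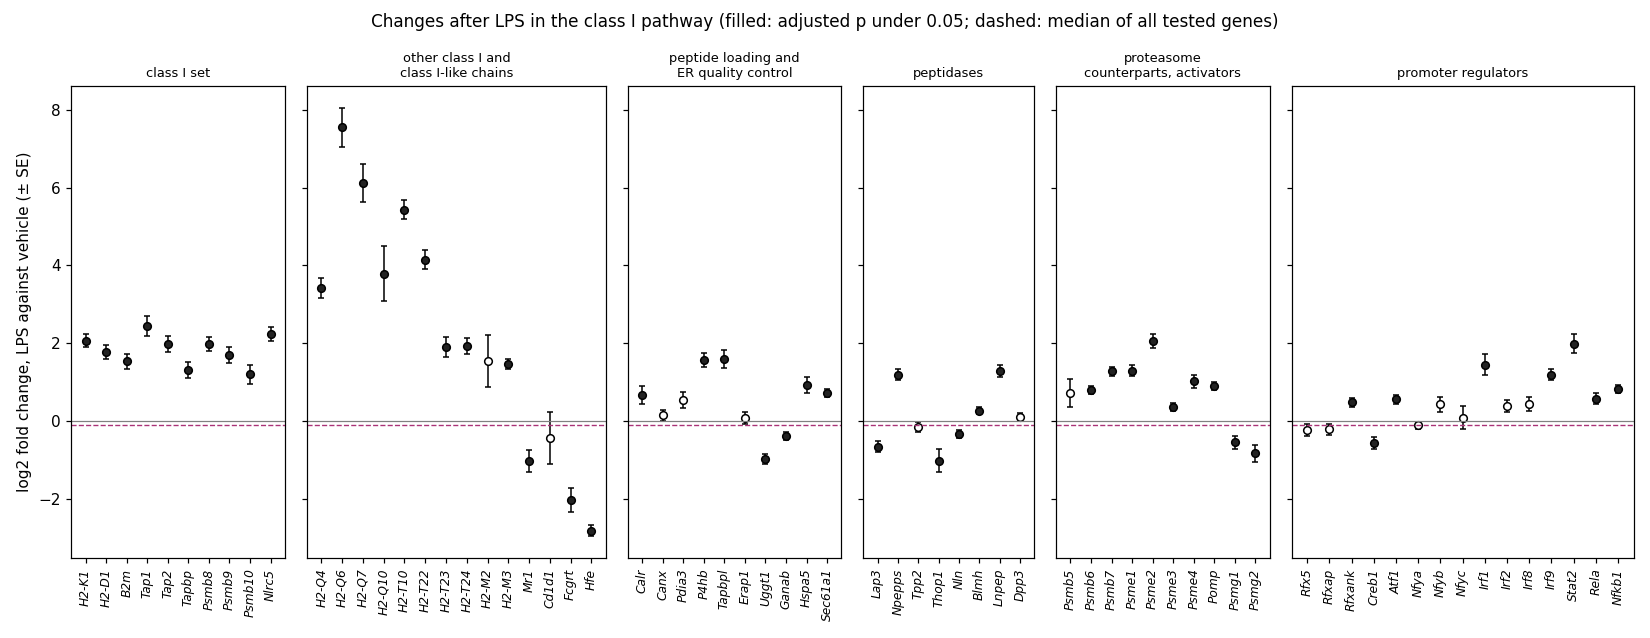
Log2 fold change of LPS against vehicle with its SE (y axis) for the tested genes of the class I set and of 5 other lists of the pathway (panels), filled where the edgeR adjusted p was under 0.05, with the median of all tested genes (−0.11) as a dashed line and 1 regulator not shown. The 10 class I genes lie between 1.20 and 2.44, and H2-Q6 is the highest point at 7.56.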

How the data were processed

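The deposited table holds raw counts per Ensembl gene for 8 libraries. The authors made it from single-end 50-base reads with HTSeqGenie, which called the aligner GSNAP on GRCm38, and only reads with a single alignment entered. The annotation release and the strand setting are not given in the sources used here. The labels and the study's methods name different library kits (stranded in the labels) and sequencers. Symbols, positions and lengths were taken from GENCODE vM21 (52489 of 52636 identifiers matched), promoter sequences from RefSeq GRCm38.p6.

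Counts were tested with edgeR 4.0.16 in R 4.3.3 (TMM, filterByExpr with a minimum count of 10, group as the only term, quasi-likelihood test, two-sided, Benjamini-Hochberg over all tested genes, threshold 0.05). The comparison was 4 LPS against 4 vehicle libraries. Alternatives were DESeq2 1.42.0, other scalings, filters and thresholds, the replicate number as a block, and leaving out each library. Ratios used counts per exonic kilobase and exact permutation, computed with Python 3.11.15 and scipy 1.17.1. Scripts were tested on simulated data. Motif letters were searched on both strands of 32851 windows, where a window is 250 bases upstream and 50 downstream of a start site, and repeated on the upstream part.

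Libraries with the same number deviated together from their group means over 8382 genes (r of 0.361, 0.183, 0.183 and 0.130 for numbers 1 to 4, the last 0.0986 on a log2(CPM + 1) scale). The main tests used group alone, and the numbers served as pairs or as a block only in alternative tests. The correlation of vehicle 4 was highest with LPS 2, at 0.141. No 2 libraries were alike within sampling noise.

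Besides the 10 class I genes, the text names the genes of the 8 ratios, the 3 largest called changes of each pathway list, called genes against the majority of their list, and Irf1 and Rfx5. One regulator that this rule also names counts in its list but is not reported here. The genes and lists were chosen with earlier results of these data known.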

Additional observations from a re-analysis of the deposited data

Results flagged for a closer look

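Of 90 groups of 4 values examined, a single library stood apart from the other 3 in 4 by Dixon's criterion (the gap to the nearest value against the whole range), and chance alone is set to mark about 5% of groups. Lnpep was at 561 CPM in LPS 3 and at 383 to 406 CPM in the other LPS libraries. Rfx5 was at 15.5 CPM in vehicle 3 and at 10.7 to 11.1 CPM in the other vehicle libraries. The log2 ratio of Psmb8 to Psmb5 was 6.56 in LPS 3 and 4.98 to 5.23 in the other LPS libraries. The log2 ratio of H2-K1 to B2m was −3.63 in LPS 3 and −2.98 to −2.90 in the others.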

How the results depend on the processing

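All 10 class I genes kept a higher level after LPS in every alternative, and all 10 were called in each except with library totals (9, without Psmb10). Their lowest log2 fold changes over the alternatives ran from 0.55 (Psmb10) and 0.66 (Tapbp) to 1.78 (Tap1). With the replicate number as a block, 9044 genes were called in place of 8877 and again all 10 class I genes, and of the genes named only the H2-M2 call changed. An exact sign-flip test of a ratio over the 4 pairs cannot go below p = 0.125, so the 6 called ratios lost their call (adjusted p = 0.167) at unchanged log2 differences of 1.42 (Psmb8 to Psmb5), 0.95 (Psmb9 to Psmb6), 0.30 (H2-K1 to H2-D1), 0.56 (Tap1 to Tap2), 1.20 (Tap1 to Tapbp) and 0.75 (Psme2 to Psme1). They also lost it with medians in place of means (adjusted permutation p = 0.0762), at 1.009, 1.06, 0.31, 0.41, 1.15 and 0.70 in the same order. Leaving out single libraries, the differences ranged from 1.05 to 1.58, 0.82 to 1.12, 0.27 to 0.33, 0.41 to 0.66, 0.999 to 1.35 and 0.62 to 0.86, with 5 or 6 ratios called without vehicle 2, 3 or 4 and none without vehicle 1 or any 1 of the LPS libraries. Of 222 alternative values of the counts and ratios, 172 stayed on their side of the threshold or within 1.5 times the reported count, 44 are lost calls of these ratios, and 6 follow from stricter thresholds. At an adjusted p under 0.01, 3 peptidases were called in place of 6, and 7019 of the 13847 tested genes in place of 8877. At the usual adjusted p of 0.05 but with an absolute log2 fold change of at least 1, 5222 genes were called, with 2 loading genes in place of 7, 3 peptidases, 4 proteasome genes in place of 9 and 4 regulators in place of 9. Among single genes, Cd1d1, never called, changed sign without vehicle 1 (−0.94 to 0.029 over the single libraries left out), Trim26 lost its call with library totals (0.20, adjusted p = 0.0738), and Nln was also lost with DESeq2 size factors in edgeR (adjusted p = 0.0502). Upper quartile scaling moved the median of all genes by −0.16 (3589 higher, 5481 lower) and having no filter by −0.19. Exact permutation of 4 against 4 libraries cannot go below 0.0286, and genes near the filter, such as Psmb5, are limited by their counts.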

Other observations

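The spacing of TGACG and ATTGG by 20 bases was found near the start sites of 27 genes, of which 21 were tested, 14 called higher and 2 lower after LPS. Without H2-K1, H2-D1 and B2m, in whose sequences the spacing was noticed, 11 of 18 were called higher and 2 lower, where 30.3% and 33.8% of all tested genes were, and no test was made. The heavy chain H2-M3, which presents formylated peptides, was among them together with H2-K1, H2-D1 and B2m, and rose from 41.2 ± 5.98 to 113 ± 7.89 CPM (SD, n = 4, log2 fold change 1.46, edgeR adjusted p = 7.07e-06). Among the others, chosen after their values were seen, were Nfe2l1, a transcription factor of proteasome genes (198 to 579 CPM, log2 fold change 1.55, edgeR adjusted p = 6.28e-06), Xpnpep1, an aminopeptidase (48.2 to 94.2 CPM, log2 fold change 0.97, edgeR adjusted p = 3.88e-05), and Trim26 of the MHC region (76.1 to 140 CPM, log2 fold change 0.88, edgeR adjusted p = 9.29e-05). Tecpr1 (log2 fold change −0.69, edgeR adjusted p = 0.00135) and Kcnq1ot1 (−1.95, edgeR adjusted p = 0.00790) were the 2 called lower. The counts of called genes with the spacing are given with TMM only. With library totals 14.4% of all tested genes were called higher and 61.1% lower. The log2 fold changes were then 0.79 for H2-M3, 0.87 for Nfe2l1, 0.29 for Xpnpep1 and 0.20 for Trim26, the last without a call. Those of Tecpr1 and Kcnq1ot1 were then −1.35 and −2.63. The genes with the spacing include neighbors that share a window, such as Znrd1 and Znrd1as, which are counted singly here.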
